A study of Mus musculus with 12 samples.

Results

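The cytosolic sulfotransferases described here are 8 genes of the Sult family, taken by gene symbol: Sult1e1, Sult2a3, Sult2a8, Sult5a1, Sult1a1, Sult1b1, Sult1c2 and Sult1d1. Each symbol matched exactly 1 transcript cluster (a set of array probes summarised as 1 value per transcript) in the platform annotation, so the set is 8 of the 21789 clusters that carry a single gene symbol. Another 8 sulfotransferase clusters carried a single symbol and are described only where they bear on the set. The values come from total liver RNA of 12 mice, hybridised to Affymetrix mouse Gene Level 1.0 ST arrays, and are log2 signals from RMA, a method that corrects background, normalizes the arrays to each other and summarises the probes. The mice form 4 groups of 3: hypothyroid mutants (replicates 5, 6 and 7), euthyroid mutants (2, 3 and 4), hypothyroid controls (17, 18 and 20) and euthyroid controls (13, 14 and 15). The mutants are L-NCoR∆ID mice, whose liver makes an altered NCoR, a corepressor that unliganded thyroid hormone receptor recruits to hold genes off. As background from what is known of this line, the altered protein lacks receptor interaction domains and is made in liver. The labels used here give no strain, age, sex, Cre driver or way of making mice hypothyroid, and do not say whether replicates of a group came from separate litters or days, so the p-values measure the spread between these samples.

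Sulfotransferases move a sulfate group from the donor PAPS to a hydroxyl or amino group of a hormone, bile acid, neurotransmitter or drug. Sulfation usually inactivates the acceptor and makes it easier to excrete. In liver the family includes enzymes for estrogens (Sult1e1), hydroxysteroids and bile acids (the Sult2a group) and phenols and iodothyronines (the Sult1 group), and sulfated iodothyronines are good substrates of the deiodinase Dio1.

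The hepatocyte markers Alb, Apoa1, Ttr, Fgb, Hnf4a and Cps1 were high on every array, between 9.41 and 13.63 on the log2 scale. On every array Xist lay between 9.25 and 9.97, while Uty, Kdm5d and Eif2s3y of the Y chromosome lay between 1.57 and 2.54, so the mice showed the pattern of females. Dio1, which thyroid hormone induces, averaged 3.25 in hypothyroid and 9.62 in euthyroid mutants, and 3.23 in hypothyroid and 8.57 in euthyroid controls, both falls called in the direction of the labels (adjusted p = 2.04e-10 and 2.71e-09 in limma). Of the other 4 check genes, Thrsp, Me1, Gpd2 and Klf9, only Gpd2 was called with thyroid state, lower in hypothyroid controls (-1.62 ± 0.208 SE, adjusted p = 0.000755). The SD of all log2 values of an array differed between groups, with 2.32 to 2.35 in hypothyroid mutants, 2.26 to 2.31 in euthyroid mutants, 2.29 to 2.30 in hypothyroid controls and 2.22 to 2.28 in euthyroid controls. Every hypothyroid mutant array lay above all other arrays in this SD, so it is confounded with group. The part of this range in the results was not tested beyond a fit with it as a covariate. That fit cannot fully tell array SD from group, so a call lost in it is not assigned to either. On the first principal component the extremes were mutant hypothyroid replicate 7 (-40.15) and control euthyroid replicate 14 (54.76), which are the outlying arrays below. The level of the altered gene Ncor1 was not analysed here.

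Differences are from limma on all 12 arrays, with Benjamini-Hochberg adjustment over the 21789 clusters within each comparison, and a cluster is called at an adjusted p under 0.05. Every group held 3 mice, standard errors (SE) and 95% intervals are those of the fit, and intervals are not adjusted. A signal of 1 gene's probes is not compared with that of another gene, since probes differ in brightness. In whole liver RNA, fewer cells of a type and less RNA per cell cannot be told apart.

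The 8 genes showed 4 patterns. Sult1e1 and Sult2a3 were called higher in mutants averaged over thyroid states, while within a single state only Sult2a3 in euthyroid mice was called. Sult2a8 was called lower in hypothyroid than in euthyroid controls and not in mutants (log2 differences -1.50 in mutants and -4.65 in controls), and the interaction that tests this contrast did not pass (adjusted p = 0.705 in limma). Sult5a1 lost most of its signal in hypothyroid mice of both genotypes. Sult1a1, Sult1b1, Sult1c2 and Sult1d1 varied less than these and passed in no comparison. The plot of the 8 genes by mouse shows these patterns.

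**Figure D1:**
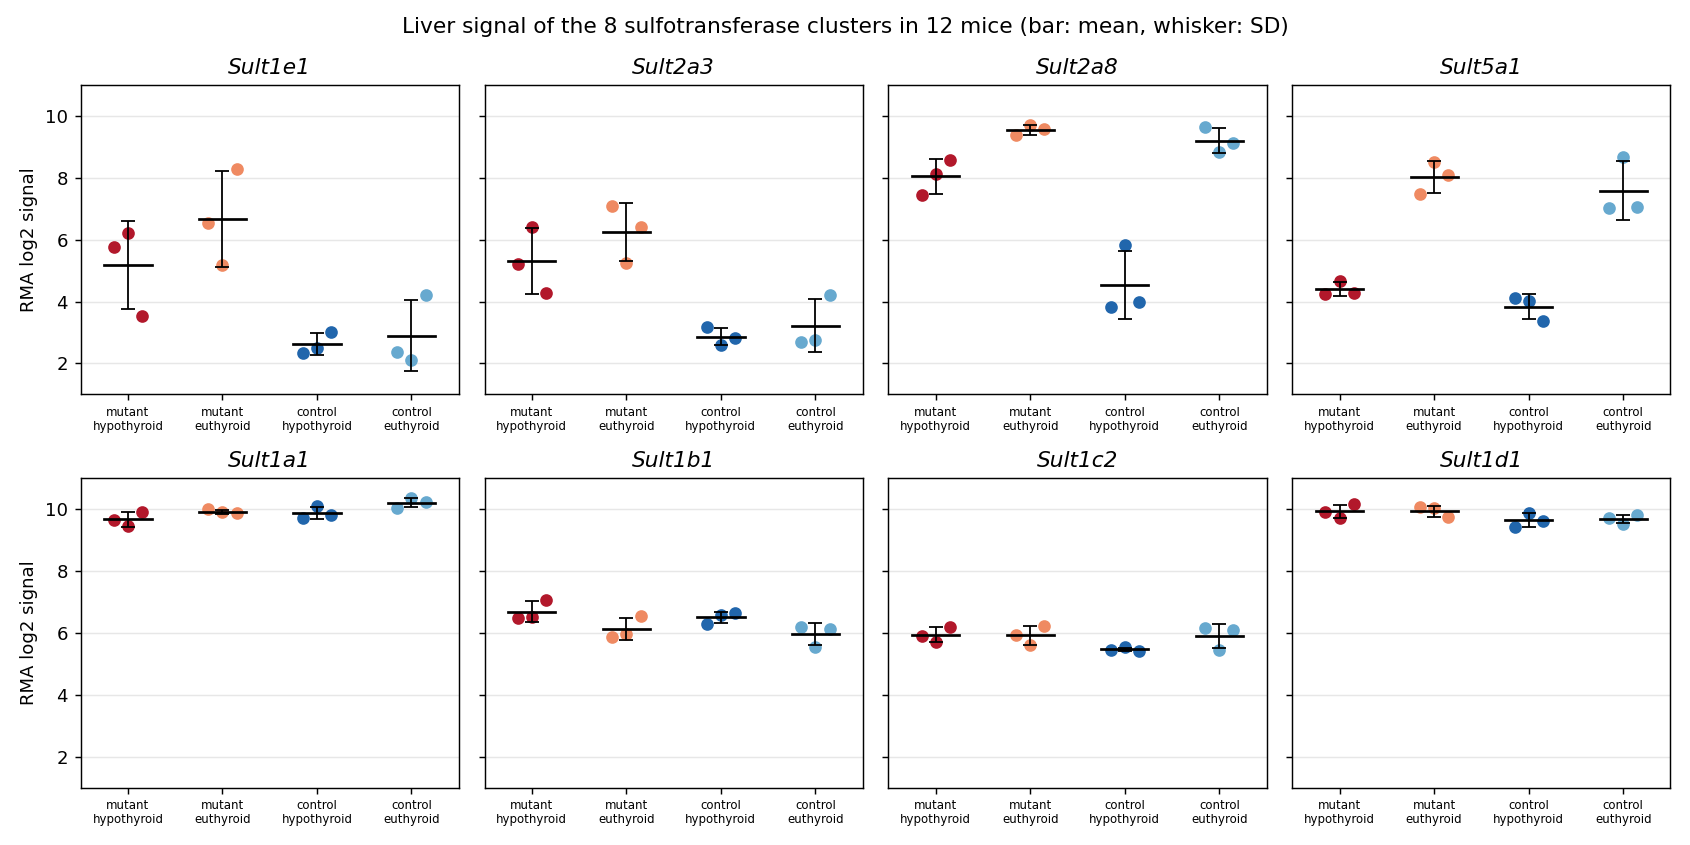
RMA log2 signal (vertical axis) of each sulfotransferase in each of the 12 livers, in 4 groups of 3 mice (horizontal axis); points are mice, bars are group means and whiskers are SDs. Sult1e1 and Sult2a3 are higher in both mutant groups than in the control group of the same thyroid state, Sult2a8 averages 4.55 in hypothyroid controls and above 8 in the other 3 groups, Sult5a1 averages 4.40 and 3.84 in the hypothyroid groups, and the 4 genes of the lower row vary little. Heights are not comparable between panels, because each gene has its own probes.

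The promoters of the 4 genes that changed are shown here, because the comparisons turn on these genes. Each is 300 bases of RefSeq's GRCm38.p6 assembly, around an annotated start site, read on the minus strand on which all 4 genes lie. All 8 genes were found in this table, with 10 promoters in all. The array data carry no genome build, so these coordinates belong to the promoter table and not to the probes. Capitals mark AGGTCA, searched on both strands, the half-site that thyroid hormone receptor and many other nuclear receptors can bind. The Sult1e1 promoter is chr5:87591562-87591861 and the Sult2a3 promoter chr7:14122999-14123298. Sult2a8 has 2 annotated starts, with promoters chr7:14446538-14446837 and chr7:14438502-14438801, and that of Sult5a1 is chr8:123158231-123158530.
Sult1e1: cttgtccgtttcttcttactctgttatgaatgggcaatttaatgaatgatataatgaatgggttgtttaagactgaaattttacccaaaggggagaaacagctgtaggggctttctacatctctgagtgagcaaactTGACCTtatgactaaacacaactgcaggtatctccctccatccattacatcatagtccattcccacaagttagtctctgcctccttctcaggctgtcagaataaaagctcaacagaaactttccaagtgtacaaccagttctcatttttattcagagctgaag
Sult2a3: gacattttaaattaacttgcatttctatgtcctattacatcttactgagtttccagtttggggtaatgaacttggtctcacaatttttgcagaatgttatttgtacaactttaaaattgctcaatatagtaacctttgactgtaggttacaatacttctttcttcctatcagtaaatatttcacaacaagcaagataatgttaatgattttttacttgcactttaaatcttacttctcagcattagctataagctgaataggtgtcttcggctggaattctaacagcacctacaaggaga
Sult2a8, start 1: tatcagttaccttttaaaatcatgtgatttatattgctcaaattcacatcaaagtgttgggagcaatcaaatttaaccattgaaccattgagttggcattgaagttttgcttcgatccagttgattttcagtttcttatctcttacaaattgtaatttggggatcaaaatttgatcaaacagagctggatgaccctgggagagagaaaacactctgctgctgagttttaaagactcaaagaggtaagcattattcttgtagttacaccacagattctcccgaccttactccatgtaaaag
Sult2a8, start 2: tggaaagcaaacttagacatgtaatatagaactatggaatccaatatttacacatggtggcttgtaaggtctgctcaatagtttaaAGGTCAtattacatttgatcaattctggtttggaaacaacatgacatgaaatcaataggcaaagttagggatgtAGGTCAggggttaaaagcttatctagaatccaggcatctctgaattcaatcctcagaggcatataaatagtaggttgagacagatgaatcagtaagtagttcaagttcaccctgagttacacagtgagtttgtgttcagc
Sult5a1: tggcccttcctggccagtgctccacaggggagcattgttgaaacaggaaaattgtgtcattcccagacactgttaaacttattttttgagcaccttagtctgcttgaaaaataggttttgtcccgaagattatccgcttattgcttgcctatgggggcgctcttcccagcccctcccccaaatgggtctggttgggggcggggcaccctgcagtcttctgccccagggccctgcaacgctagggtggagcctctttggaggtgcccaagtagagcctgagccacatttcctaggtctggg

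Sult1e1 held 1 half-site, on the opposite strand at bases -113 to -108 from the start. The second start of Sult2a8 held 2 on the same strand, at -164 to -159 and at -90 to -85. No AGGTCA stood in the windows of Sult2a3, Sult5a1 and the first start of Sult2a8. Of the other 4 genes Sult1b1 alone had matches, 2 in 1 of its 2 promoters, so 3 of the 8 genes had at least 1. Each of these genes matched in 1 promoter, so 3 of the 10 promoters held at least 1 match. Of 32851 promoters of this length, 16.3% held at least 1 AGGTCA and 1.81% held 2 or more matches. The direct repeat of AGGTCA with 4 bases between, searched on both strands, stood in none of the 10 promoters and in 0.0152% of all. A match is a description of these letters and not a binding site.

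Sult1e1 encodes the estrogen sulfotransferase, which inactivates estradiol and estrone. Its signal was 5.77, 6.21 and 3.55 in hypothyroid mutants 5, 6 and 7, against 2.35, 2.49 and 3.02 in hypothyroid controls 17, 18 and 20. It was 6.53, 5.19 and 8.28 in euthyroid mutants 2, 3 and 4, against 2.37, 2.11 and 4.22 in euthyroid controls 13, 14 and 15. Every mutant lay above every control of its thyroid state, but mutant hypothyroid replicate 7 lay below control euthyroid replicate 15, and the mutants differed widely among themselves. Averaged over thyroid states, Sult1e1 rose 8.95-fold in mutants (log2 difference 3.16 ± 0.519 SE, 95% interval 2.05 to 4.27, adjusted p = 0.00786). Signals were low in controls for Sult1e1 and Sult2a3, so their folds are those of the RMA scale and not exact ratios of RNA. The call was kept without any 1 array, and the difference was not past the threshold when every cluster of the array was tested (adjusted p = 0.0602) or with robust moderation of the variances (0.0756). Within euthyroid mice the difference was 3.77 ± 0.734 (adjusted p = 0.0692) and within hypothyroid mice 2.56 ± 0.734 (adjusted p = 0.242), neither called. The euthyroid difference passed when 1 of 3 arrays was left out, namely mutant hypothyroid replicate 7 (0.0302), mutant euthyroid replicate 3 (0.0309) or control euthyroid replicate 15 (0.0473).

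Sult2a3 belongs to the Sult2a group, whose members sulfate hydroxysteroids and bile acids. Its signal was 5.22, 6.42 and 4.27 in hypothyroid mutants 5, 6 and 7, against 3.17, 2.60 and 2.84 in hypothyroid controls 17, 18 and 20. It was 7.10, 5.25 and 6.41 in euthyroid mutants 2, 3 and 4, against 2.68, 2.76 and 4.20 in euthyroid controls 13, 14 and 15. All 6 mutants lay above all 6 controls, with mutant hypothyroid replicate 7 (4.27) and control euthyroid replicate 15 (4.20) nearest to each other. The average over thyroid states rose 6.66-fold in mutants (2.74 ± 0.365, 95% interval 1.96 to 3.52, adjusted p = 0.0017), and this call was kept in each of the alternative fits that included the cluster and without any 1 array. In euthyroid mice alone the rise was 8.21-fold (3.04 ± 0.516, adjusted p = 0.0303). That call ended when 1 of 6 arrays was left out, namely mutant hypothyroid replicate 5 (0.0536), mutant euthyroid replicate 2 (0.152) or 4 (0.143), control hypothyroid replicate 17 (0.0502) or 20 (0.0542), or control euthyroid replicate 14 (0.152). It also ended when every cluster was tested (0.221), with robust moderation (0.207), with array SD as a covariate (0.0532), without both outlying arrays (0.0766) and in the compared groups alone (0.0627). In hypothyroid mice alone the difference was 2.43 ± 0.516 (adjusted p = 0.0735) and not called, and it passed in 4 alternatives: without mutant hypothyroid replicate 7 (0.0478), without control euthyroid replicate 13 (0.0439), without both outlying arrays (0.0393) and in the compared groups alone (0.0269).

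The signals of the 2 genes went together to a large degree. Within groups, the 2 genes ranked the mice alike only in hypothyroid mutants. Over the 12 arrays their signals had a Pearson r of 0.94, and after each group's mean was taken off, r was 0.77. These arrays share groups and RNA samples, so the values describe these livers only. The other pairs of the 8 genes had r between -0.74 and 0.78 over the 12 arrays. With group means taken off, they lay between -0.72 (Sult5a1 and Sult1c2) and 0.84 (Sult1b1 and Sult1c2). On that measure the pair of Sult1e1 and Sult2a3 was therefore not the highest.

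**Figure D2:**
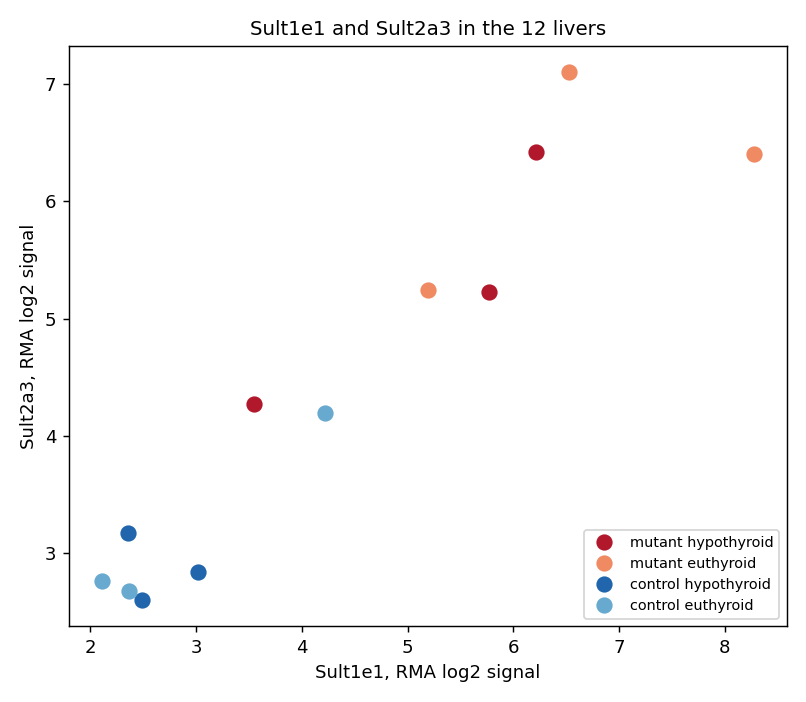
Sult1e1 (horizontal axis) against Sult2a3 (vertical axis), RMA log2 signal, 1 point per liver, coloured by group. The 6 mutants stand above 4.2 for Sult2a3, mutant hypothyroid replicate 7 (3.55 and 4.27) lies beside control euthyroid replicate 15 (4.22 and 4.20), and the other 5 controls cluster at the lower left.

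Sult2a8 encodes a liver enzyme that in mice sulfates bile acids. Its signal was 7.46, 8.13 and 8.56 in hypothyroid mutants 5, 6 and 7, against 3.83, 5.81 and 4.0 in hypothyroid controls 17, 18 and 20. It was 9.39, 9.69 and 9.57 in euthyroid mutants 2, 3 and 4, against 9.65, 8.83 and 9.12 in euthyroid controls 13, 14 and 15. The hypothyroid controls stood apart from the other 9 mice, and control hypothyroid replicate 18 was the highest of them. In hypothyroid controls Sult2a8 fell by 4.65 on the log2 scale, or 25.2-fold (SE 0.407, 95% interval -5.52 to -3.79, adjusted p = 2.02e-05). In mutants the difference was -1.50 ± 0.407 (adjusted p = 0.111), not called although all 3 hypothyroid mutants lay below all 3 euthyroid mutants, and it passed without control hypothyroid replicate 18 (0.0109) and in the compared groups alone (0.0158). Within hypothyroid mice, mutants exceeded controls 11.3-fold (3.50 ± 0.407, adjusted p = 0.00135), a call kept without any 1 array and not with array SD as a covariate (3.08, adjusted p = 0.0645). Hypothyroid controls 17 and 20 lay below the median of every array (4.16 to 4.32). The 25.2-fold and 11.3-fold values are therefore those of the RMA scale and not exact ratios of RNA. Within euthyroid mice the genotypes differed by 0.35 ± 0.407 (95% interval -0.52 to 1.21, adjusted p = 0.847).

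Whether the response of Sult2a8 to hypothyroidism depended on genotype was tested by the interaction of both factors. The estimate was 3.16 ± 0.575 on the log2 scale (95% interval 1.93 to 4.38), the second smallest p of all 21789 clusters (6.47e-05), and it did not pass after adjustment (adjusted p = 0.705). Without control hypothyroid replicate 18 it was 3.79 with an adjusted p of 0.00217, and in the other alternatives the adjusted p stayed at 0.292 or above. The interaction was called for 0% of all clusters in limma, with 600 at an unadjusted p under 0.05 (2.75%), and for 0 of the 8 sulfotransferases, of which Sult2a8 alone had an unadjusted p under 0.05. The estimates of Sult1e1 (-1.21 ± 1.04) and Sult2a3 (-0.60 ± 0.73) had intervals that included 0. Averaged over thyroid states, Sult2a8 rose 3.80-fold in mutants (1.92 ± 0.287, adjusted p = 0.00386), which was kept without any 1 array and lost with array SD as a covariate (1.60, adjusted p = 0.144).

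Sult5a1 encodes a further member of the family. Its signal was 4.25, 4.66 and 4.28 in hypothyroid mutants 5, 6 and 7, against 7.48, 8.50 and 8.09 in euthyroid mutants 2, 3 and 4. It was 4.12, 4.02 and 3.38 in hypothyroid controls 17, 18 and 20, against 7.03, 8.68 and 7.04 in euthyroid controls 13, 14 and 15. All 6 hypothyroid mice lay below all 6 euthyroid mice, and control euthyroid replicate 14 stood above the other 2 of its group. In hypothyroid mutants Sult5a1 fell by 3.63, or 12.3-fold (SE 0.367, adjusted p = 0.000155), and in hypothyroid controls it fell by 3.75, or 13.4-fold (SE 0.367, adjusted p = 6.54e-05). Both falls were kept in all 21 alternatives. The hypothyroid signals were low, so these folds too are those of the RMA scale and not exact ratios of RNA. The genotypes differed by 0.56 ± 0.367 in hypothyroid mice (adjusted p = 0.598) and by 0.44 ± 0.367 in euthyroid mice (adjusted p = 0.771), with 95% intervals of -0.22 to 1.34 and -0.34 to 1.22. The interaction was 0.12 ± 0.519 (95% interval -0.99 to 1.23). Hypothyroid signals of Sult5a1 were low in both genotypes, beside array medians of 4.16 to 4.32. A genotype difference there is poorly measured, so this interval cannot show whether the fall depended on genotype.

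**Figure D3:**
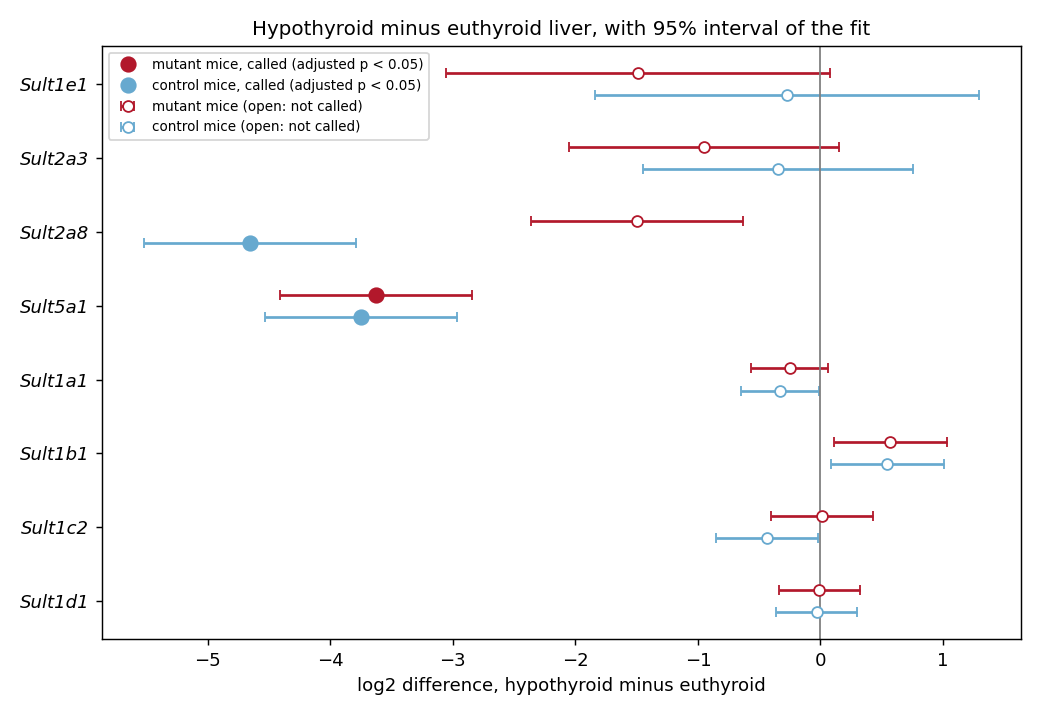
Log2 difference, hypothyroid minus euthyroid (horizontal axis), of the 8 genes (vertical axis) in mutant and in control mice, with 95% intervals of the fit; filled points have an adjusted p under 0.05. Sult2a8 lies at -1.50 in mutants and -4.65 in controls, Sult5a1 at -3.63 and -3.75, and the points of the 4 lowest genes lie within 0.6 of 0.

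The Sult1 enzymes other than Sult1e1 differed less than the genes above. Sult1a1, the main phenol sulfotransferase, averaged 9.67 ± 0.237 (SD) in hypothyroid mutants, 9.92 ± 0.0648 in euthyroid mutants, 9.88 ± 0.197 in hypothyroid controls and 10.21 ± 0.153 in euthyroid controls. Its mutant difference averaged over thyroid states was -0.25 ± 0.105 SE (95% interval -0.48 to -0.03, adjusted p = 0.25), not called, with euthyroid mutants all below euthyroid controls. Sult1b1, which sulfates iodothyronines and small phenols, averaged 6.69 ± 0.331 in hypothyroid mutants, 6.12 ± 0.362 in euthyroid mutants, 6.50 ± 0.187 in hypothyroid controls and 5.96 ± 0.351 in euthyroid controls. It was the 1 member higher in hypothyroid mice of both genotypes, by 0.57 ± 0.217 in mutants (95% interval 0.11 to 1.03, adjusted p = 0.23) and 0.55 ± 0.217 in controls (95% interval 0.08 to 1.01, adjusted p = 0.295). Neither was called, and an average of this difference over genotypes was not tested.

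Sult1c2, another phenol sulfotransferase, averaged 5.94 ± 0.241 in hypothyroid mutants, 5.93 ± 0.301 in euthyroid mutants, 5.47 ± 0.0595 in hypothyroid controls and 5.90 ± 0.382 in euthyroid controls. Its hypothyroid mutants all lay above the hypothyroid controls, by 0.47 ± 0.195 (adjusted p = 0.422). Sult1d1, which in rodents sulfates catecholamines, averaged 9.93 ± 0.217 in hypothyroid mutants, 9.94 ± 0.178 in euthyroid mutants, 9.65 ± 0.221 in hypothyroid controls and 9.68 ± 0.135 in euthyroid controls. Its mutant difference averaged over thyroid states was 0.27 ± 0.11 (95% interval 0.04 to 0.50, adjusted p = 0.238), not called. In RefSeq's order of coding genes Sult1b1, Sult1d1 and Sult1e1 are direct neighbours on chromosome 5, and of the 3 only Sult1e1 was called in any comparison.

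The 8 members were chosen with earlier results of these data known, so the counts below describe this set and not the whole family. Of 10 other sulfotransferase genes, described below, 0 were called. Counted together, 3 of the 8 genes were called in mutants averaged over thyroid states, all higher, against 1.14% of all clusters called and 0.904% called higher. In hypothyroid mice 1 of 8 was called between genotypes, higher in mutants, against 0.262% of all clusters called and 0.216% called higher. In euthyroid mice 1 of 8 was called, higher in mutants, against 0.129% and 0.124%. With hypothyroidism 1 of 8 was called in mutants, against 1.11% of all clusters called and 0.454% called lower, and 2 of 8 in controls, against 1.11% called and 0.473% called lower, all 3 of them lower. Mutant and control groups did not overlap in 5 of 8 genes in hypothyroid mice, all higher in mutants, against 22.5% of all clusters in either direction and 12.4% higher. In euthyroid mice they did not overlap in 3 of 8, against 10.4%. Hypothyroid and euthyroid groups did not overlap in 2 of 8 genes in mutants, against 25.7%, and in 3 of 8 in controls, against 16.7%. Only Sult2a3 separated all mutants from all controls, against 1.05% of all clusters. The median difference of the 8 genes in mutants was 0.51 in hypothyroid and 0.30 in euthyroid mice, against -0.02 and 0.000161 over all clusters. For hypothyroid against euthyroid mice it was -0.60 in mutants and -0.34 in controls, against -0.02 and -0.01. The 4 comparisons share groups, so their values are not independent of each other.

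**Figure D4:**
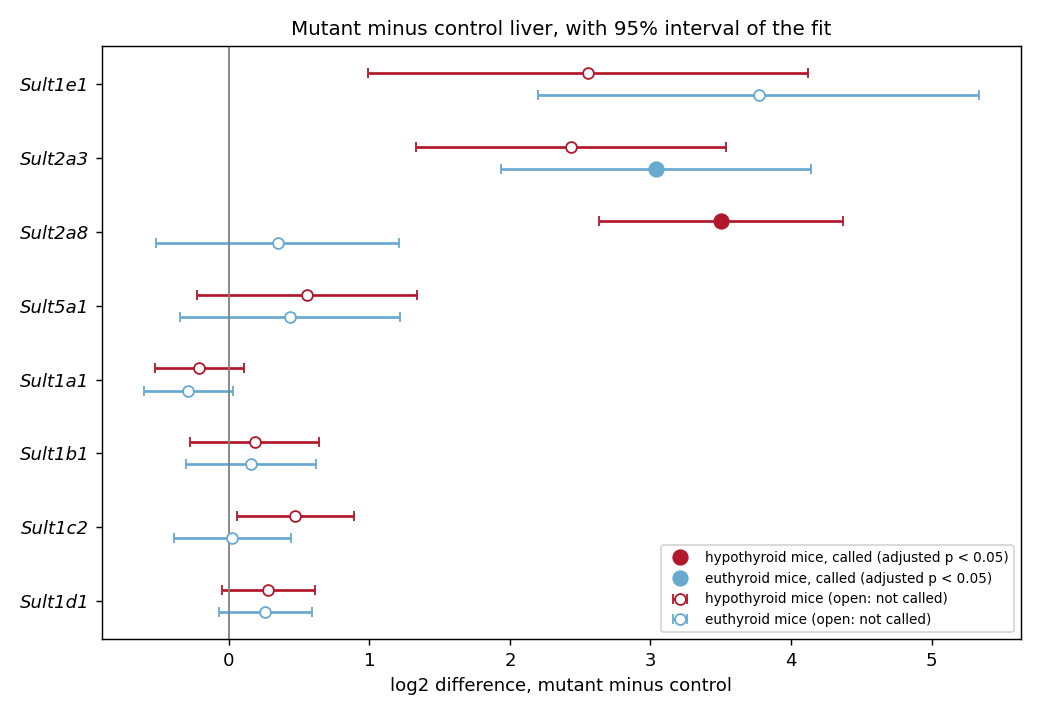
Log2 difference, mutant minus control (horizontal axis), of the 8 genes (vertical axis) in hypothyroid and in euthyroid mice, with 95% intervals of the fit; filled points have an adjusted p under 0.05. Sult2a8 lies at 3.50 in hypothyroid and 0.35 in euthyroid mice, Sult1e1 and Sult2a3 lie between 2.43 and 3.77, and the points of Sult5a1, Sult1a1, Sult1b1, Sult1c2 and Sult1d1 lie between -0.29 and 0.56.

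Copies of the Sult2a group can share probes, which leaves the identity of the Sult2a3 signal uncertain. Sult2a3 stands between Sult2a4 and Sult2a6 in RefSeq's gene order on chromosome 7, and Sult2a8 between Sult2a6 and Sult2a7. The Sult2a3 promoter printed above matched that of Sult2a4 in 92.2% of 243 aligned columns. It matched that of Sult2a5 in 87.4% of 277 and that of Sult2a6 in 81.6% of 283. Neither Sult2a8 promoter aligned to a promoter of Sult2a3 over more than 16 columns. Transcript sequences were not analysed here. The annotation gave several Sult2a symbols to 2 further clusters, which were fitted with all 35557 clusters and from which no gene is named.

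Both shared clusters were high in mutants, as the plot of them by mouse shows. The cluster listing 4 symbols was 6.80, 7.17 and 5.85 in hypothyroid mutants 5, 6 and 7, against 2.76, 4.03 and 4.08 in hypothyroid controls 17, 18 and 20. In euthyroid mutants 2, 3 and 4 it was 7.91, 7.28 and 7.58, against 3.14, 4.50 and 6.54 in euthyroid controls 13, 14 and 15. Mutants lay above controls within each thyroid state. Averaged over thyroid states the cluster rose 7.60-fold (2.93 ± 0.492, adjusted p = 0.041), a call kept only without control euthyroid replicate 13 (0.0212) or 15 (0.00659) and lost without any other 1 array (0.0586 to 0.113). The cluster listing 2 symbols averaged 7.74 ± 1.72 (SD) in hypothyroid mutants, 9.88 ± 0.375 in euthyroid mutants, 4.44 ± 0.419 in hypothyroid controls and 5.65 ± 2.93 in euthyroid controls. Its average difference of 3.76 ± 0.838 SE was not called (adjusted p = 0.118) and passed without control euthyroid replicate 15 (0.0213). Mutant hypothyroid replicate 7 was the lowest mutant and control euthyroid replicate 15 the highest control in both clusters, and in Sult1e1 and Sult2a3 too.

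**Figure D5:**
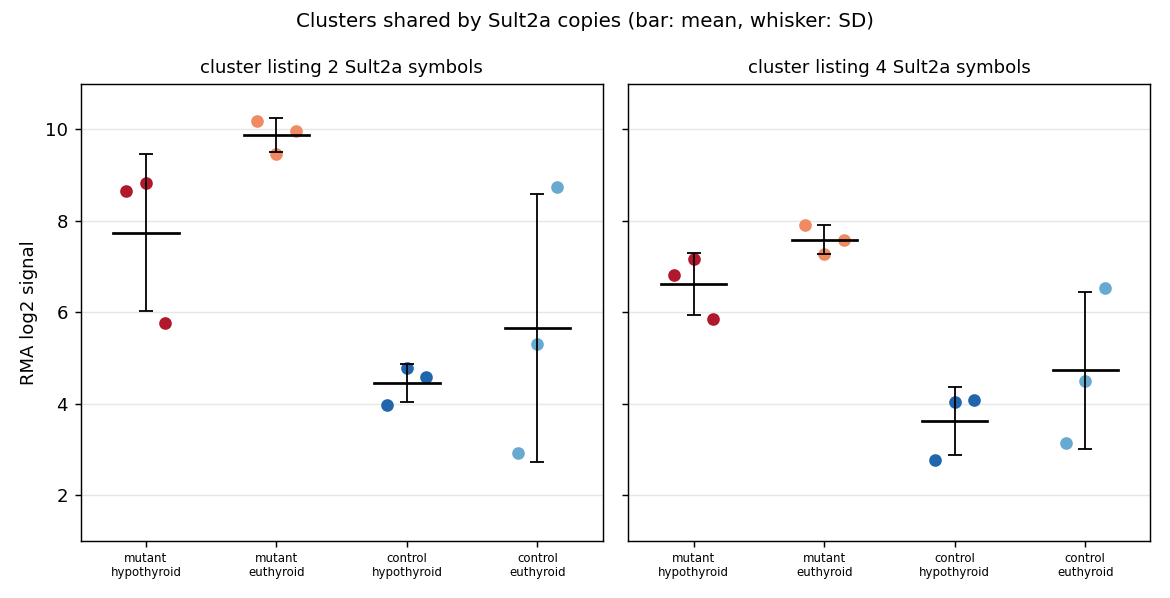
RMA log2 signal (vertical axis) of the 2 clusters whose annotation lists several Sult2a symbols, in the 4 groups of 3 mice (horizontal axis); points are mice, bars are means and whiskers are SDs. Mutant hypothyroid replicate 7 (5.75 and 5.85) lies below control euthyroid replicate 15 (8.74 and 6.54) in both panels.

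Of 10 other sulfotransferase genes measured alone, Tpst1 and Tpst2 for protein tyrosine included, 0 of 10 were called in any of the 6 comparisons. For this list and those below, the share of all clusters called was at most 1.14% in any comparison, so 0 calls among 10 genes says little. Sult3a1, which is known for higher expression in female mouse liver, had the widest spread with its neighbour Sult3a2. Sult3a1 averaged 5.84 ± 1.54 (SD) in hypothyroid controls and 9.56 ± 1.85 in euthyroid controls, a difference of -3.72 ± 0.98 SE (adjusted p = 0.0874) in which the groups did not overlap. In mutants it averaged 7.58 ± 1.77 in hypothyroid and 9.87 ± 1.26 in euthyroid mice (-2.30 ± 0.98, adjusted p = 0.278).

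Supply of the sulfate donor moved in 1 gene. Papss2, the PAPS synthase that is the main form in liver, averaged 10.26 ± 0.271 (SD) in hypothyroid mutants, 11.08 ± 0.0637 in euthyroid mutants, 9.07 ± 0.739 in hypothyroid controls and 10.20 ± 0.188 in euthyroid controls. Mutants lay above controls in each thyroid state, and averaged over both Papss2 rose 2.04-fold (1.03 ± 0.187 SE, adjusted p = 0.0142). The call was kept without any 1 array, and lost when every cluster was tested (0.0795), with array SD as a covariate (0.237) and without both outlying arrays (0.0789). In controls Papss2 was lower in hypothyroid than in euthyroid mice by 1.14 ± 0.265, just short of a call (adjusted p = 0.0547). In mutants it was lower by 0.82 ± 0.265 (adjusted p = 0.17), not called. The groups did not overlap in either genotype, and the interaction was 0.32 ± 0.375, not called. The other 9 genes of donor supply and recycling, among them Papss1 (0.25) and the PAPS transporter Slc35b2 (-0.28), were not called in any comparison. Of 9 genes of cysteine breakdown, which supplies sulfate, Csad, an enzyme of taurine synthesis, rose 2.88-fold in mutants on average (1.53 ± 0.303, adjusted p = 0.0244), a call kept only without mutant hypothyroid replicate 7, control hypothyroid replicate 17 or control euthyroid replicate 13 or 14 (0.0501 to 0.0759 without any other array). The Csad call was also lost when every cluster was tested (0.121), with robust moderation (0.0806) and with array SD as a covariate (0.175). Ethe1, a mitochondrial sulfur dioxygenase, was higher in hypothyroid than in euthyroid mutants (0.70 ± 0.155, adjusted p = 0.0421), a call kept only without 1 of the 3 control euthyroid arrays and otherwise at 0.0611 to 0.206. It was also lost with quantile normalization (0.192), when every cluster was tested (0.111) and with array SD as a covariate (0.262).

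Among 14 genes that handle sulfated hormones, steroids and their conjugates, the export pumps Abcc3 and Abcc4 and the deiodinase Dio1 changed with thyroid state. Abcc4 rose 3.61-fold in hypothyroid mutants (1.85 ± 0.223, adjusted p = 0.000729) and 2.94-fold in hypothyroid controls (1.55 ± 0.223, adjusted p = 0.00189). Abcc3 rose 1.92-fold in mutants (0.94 ± 0.131, adjusted p = 0.00208) and 2.04-fold in controls (1.03 ± 0.131, adjusted p = 0.000736). Each of these calls was kept without any 1 array, and that of Abcc3 in mutants was lost with array SD as a covariate (0.75, adjusted p = 0.137). Abcc4 was also higher in mutants on average (0.78 ± 0.158, adjusted p = 0.0265), a call kept when 1 of 4 of the 12 arrays was left out, and lost when every cluster was tested (0.111), with array SD as a covariate (0.24) and without both outlying arrays (0.0528). The remaining 11 genes, which include the uptake carriers Slco1a1, Slco1a4 and Slco1b2, were not called with thyroid state. A list of 12 genes held sulfatases, which remove sulfate, and the sulfatase modifying factors Sumf1 and Sumf2. Of these, Arsa, the lysosomal arylsulfatase, was called with thyroid state, higher in hypothyroid mice by 1.06 ± 0.182 in mutants (adjusted p = 0.0092) and 0.99 ± 0.182 in controls (adjusted p = 0.0129). Averaged over thyroid states Arsa was lower in mutants (-0.61 ± 0.128, adjusted p = 0.0336), a call kept when 1 of 5 of the 12 arrays was left out, otherwise at 0.0738 to 0.107, and lost with median centring (0.0648) and when every cluster was tested (0.116). The thyroid call in mutants was lost without mutant euthyroid replicate 4 or mutant hypothyroid replicate 7 (0.063 in each case) and that in controls without control hypothyroid replicates 17 or 18 (0.0804 and 0.0542). With array SD as a covariate both Arsa thyroid calls were lost (0.64, adjusted p = 0.382 in mutants and 0.72, adjusted p = 0.119 in controls), and that in controls also when every cluster was tested (0.0593).

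Of 12 receptor genes known to act on sulfotransferase promoters, 2 differed by genotype on average and 1 by thyroid state. Over all clusters, 1.14% were called for the genotype average and 1.11% for thyroid state in each genotype. Nr1i3, which encodes the xenobiotic receptor CAR, fell by 0.65 in mutants (SE 0.14, adjusted p = 0.0365), and Esr1, the estrogen receptor, rose by 0.63 (SE 0.128, adjusted p = 0.0273). The call of Nr1i3 was kept only without mutant hypothyroid replicate 5, mutant euthyroid replicate 3, control hypothyroid replicate 20 or control euthyroid replicate 13, with 0.0712 to 0.104 without any other array, and was lost with median centring (0.0614), every cluster (0.127), array SD as a covariate (0.22) and without both outlying arrays (0.144). The call of Esr1 was kept only when mutant hypothyroid replicate 5, mutant euthyroid replicate 3, control hypothyroid replicate 18 or control euthyroid replicate 13 or 15 was left out, with 0.0504 to 0.0928 otherwise, and was lost with quantile normalization (0.0515), every cluster (0.105), array SD as a covariate (0.198) and without both outlying arrays (0.11). Esr1 was also lower in hypothyroid mice, by -0.90 ± 0.181 in mutants (adjusted p = 0.0238) and -0.83 ± 0.181 in controls (adjusted p = 0.0377). Leaving out 1 array ended the call in mutants for 5 of the 12 arrays (0.0591 to 0.112) and in controls for 7 (0.0517 to 0.173). Both were lost when every cluster was tested (0.0826 in mutants and 0.123 in controls) and with array SD as a covariate (0.326 and 0.179). The call in mutants was also lost without both outlying arrays (0.0539) and that in controls in the compared groups alone (0.0817).

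The genes whose signals followed each changed sulfotransferase most closely over the 12 arrays were listed by Pearson r among clusters above the median level. For Sult5a1 they were Dio1 (0.97), Slc13a3 (0.97), Abca2 (0.97) and Sh3pxd2a (0.97). For Sult2a8 they were Paqr9 (0.96), 9630013D21Rik (0.94), Tlcd2 (0.94) and Slc16a12 (0.94). For Sult2a3 they were Parp12 (0.89), Ndufs7 (0.88), Depdc7 (0.87) and Pdlim1 (0.85), and for Sult1e1 Depdc7 (0.87), Coasy (0.86), Pnpla3 (0.85) and Eif4e3 (0.82). Both Sult5a1 and Dio1 were low in the 6 hypothyroid and high in the 6 euthyroid livers. The 12 arrays share their 4 groups, so a likeness can come from group means alone.

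Markers of other liver cells were read beside these results. The mean of 9 Kupffer cell and macrophage markers lay between 5.36 and 6.19 in hypothyroid mutants, 6.19 and 7.20 in euthyroid mutants, 5.27 and 5.44 in hypothyroid controls and 5.82 and 5.92 in euthyroid controls. The ranges of hypothyroid mutants and hypothyroid controls overlapped. Those of euthyroid mutants and euthyroid controls did not, with mutants higher. Hypothyroid ranges lay below euthyroid ranges in controls and, by a narrow margin, in mutants (highest 6.188 against lowest 6.192). Of the 9 markers, 0 were called between genotypes in either thyroid state and 1 on average (median difference 0.55), and 1 was called with thyroid state in mutants (median -0.81) and 0 in controls (-0.53). Its part in the differences of Sult1e1, Sult2a3, Sult2a8 and Sult5a1 was not tested. The mean of the 6 measured hepatocyte markers stayed between 12.37 and 12.38 in hypothyroid mutants, 12.18 and 12.27 in euthyroid mutants, 12.34 and 12.37 in hypothyroid controls and 12.26 and 12.30 in euthyroid controls. Cholangiocyte (3.77 to 4.05), lymphocyte (2.61 to 3.26) and adipocyte (2.88 to 3.39) markers were low on all arrays.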

How the data were processed

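Liver RNA of 12 mice was measured on 1 array each. The deposited values are log2 signals that the authors made with RMA, per the submitters' processing notes, whose version and options are not stated there. RNA was isolated with Trizol, cleaned on RNeasy columns and labelled as cDNA, per the labels' protocols. Groups and replicate numbers came from the sample titles. The platform annotation gave 1 symbol to 21789 of 35557 clusters, several to 1621 and none to 12147. The annotation's symbols were kept, and older names of listed genes were also sought through a RefSeq gene table of GRCm38.p6.

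The 4 group means were fitted jointly over 12 arrays with limma 3.58.1 in R 4.3.3 (prior degrees of freedom 6.83, residual 8), without a filter on level, and p-values were adjusted by Benjamini-Hochberg within each of 6 comparisons: mutant against control in each thyroid state and averaged over both, hypothyroid against euthyroid in each genotype, and the interaction. The threshold was an adjusted p of 0.05. The fit was tested on simulated data. No batch was tested, because no label or header used here dates an array. Precision is limited by the number of arrays.

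The 8 members, the gene lists and the tests were chosen with earlier results of these data known. Named genes are the 8 members, the called genes of each list (at most the 4 largest, or the largest 2 as values), and the 4 clusters most like each called member. Papss1, Slc35b2 and the clusters listing several symbols were added after their values were seen. Alternatives were testing every cluster, testing only clusters above the median level, quantile normalization, median centring, the compared groups alone, a mean-variance trend, robust moderation, array SD as a covariate, leaving out both outlying arrays, and leaving out each array in turn.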

Additional observations from a re-analysis of the deposited data

Results flagged for a closer look

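The cluster whose annotation lists 4 Sult2a symbols stood outside the clusters with 1 symbol and was higher in mutants than in controls, by 2.93 on the log2 scale averaged over thyroid states (adjusted p = 0.041 in limma over 35557 clusters). The difference ranged from 2.53 to 3.38 when each array was left out in turn, and the call ended without 10 of the 12 arrays. Its part in the Sult2a3 signal was not tested.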

How the results depend on the processing

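No paired analysis was possible because the groups share no replicate numbers. The fall of Sult2a8 and Sult5a1 in hypothyroid controls and of Sult5a1 in hypothyroid mutants was called in all 21 alternatives. In euthyroid mice the count of called members, 1, became 0 with clusters above the median level (where Sult1e1 and Sult2a3 were not among the tested clusters), with every cluster, robust moderation, array SD as a covariate, without both outlying arrays and in the compared groups alone, and ranged from 0 to 2 when each array was left out. In hypothyroid mice it was 0 with array SD as a covariate, 2 without both outlying arrays and in the compared groups alone, and 1 to 2 when each array was left out. For hypothyroid against euthyroid mutants it was 2 in the compared groups alone and 1 to 2 with arrays left out, for the interaction 0 to 1 with arrays left out, and for the mutant average, 3 in the full fit, 1 with clusters above the median level and 2 with every cluster and robust moderation (Sult1e1 lost in both) and with array SD as a covariate (Sult2a8 lost). The cause of these changes was not tested beyond the clusters removed by that filter. The sign changed only in differences that were not called, among them the Sult2a3 interaction (-0.60 in the full fit). With both outlying arrays left out the mutant difference was -0.044 (euthyroid), -0.0089 (hypothyroid) and -0.026 (averaged) for Sult1b1 and -0.19 (euthyroid) for Sult1c2. That fit gave -0.11 for Sult1c2 in hypothyroid against euthyroid mutants, and interactions of 0.14 (Sult2a3), -0.37 (Sult5a1), -0.12 (Sult1a1) and -0.016 (Sult1d1). With array SD as a covariate the values were -0.050 (Sult1c2, mutants, euthyroid), -0.013 (Sult1b1, mutants, hypothyroid), 0.36 (Sult1e1, hypothyroid controls), -0.16 (Sult1c2, hypothyroid mutants), and interactions of -0.061 (Sult1b1) and -0.041 (Sult1d1). Quantile normalization gave -0.061 for Sult1c2 in hypothyroid mutants and -0.056 for the Sult1b1 interaction, and median centring 0.045 for Sult1d1 in hypothyroid mutants. With each array left out, sign changes lay in the mutant difference of Sult1b1 (-0.049 to 0.29 in euthyroid, -0.0089 to 0.28 in hypothyroid mice) and Sult1c2 (-0.19 to 0.18, euthyroid), in hypothyroid controls in Sult1e1 (-0.67 to 0.38), Sult2a3 (-0.61 to 0.15) and Sult1d1 (-0.15 to 0.072), in hypothyroid mutants in Sult1c2 (-0.14 to 0.16) and Sult1d1 (-0.12 to 0.094), and in the interaction of Sult5a1 (-0.43 to 0.40), Sult1a1 (-0.045 to 0.19), Sult1b1 (-0.17 to 0.23) and Sult1d1 (-0.090 to 0.14). Low signal limits how well folds are known for Sult1e1 and Sult2a3 in controls, Sult2a8 in hypothyroid controls and Sult5a1 in hypothyroid mice.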
